A study of Mus musculus with 44 samples.

Results

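The PPAR and RXR receptors and their coregulators were taken as a listed set of 7 genes: Pparg, Ppara, Ppard, Rxra, Rxrb, Ncor1 and Ppargc1b. A gene counted as measured when the array annotation held a probe set with exactly that 1 gene symbol. By this rule 6 of the 7 genes were measured, among 19938 genes in all, and each of the 6 had 1 such probe set. Ncor1, which encodes a corepressor, matched no such probe set and was not analysed here.

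Gene expression was measured on 44 arrays of MFs sorted from mouse tibialis anterior muscle after cardiotoxin, a snake venom component that kills muscle fibres and starts regeneration. CD45+ blood-lineage cells were bead-selected and sorted by antibody into Ly6C+ F4/80low MFs, the inflammatory type, or Ly6C- F4/80high MFs, the repair type. WT mice (C57B6/J) gave 4 arrays of Ly6C+ MFs at day 1, 6 of each subset at day 2 and 4 of Ly6C+ MFs at day 4. KO mice (C57B6/J, PPARg fl/fl, LysM Cre+) gave 4, 5 of each subset, and 4. WT mice given rosiglitazone, a synthetic ligand of PPARγ, gave 3 arrays of each subset at day 2, while all other mice were non-treated and every mouse was injured. LysM Cre is expressed from the Lyz2 locus in myeloid cells, so the deletion also reaches neutrophils and other myeloid cells, and its extent in the sorted cells was not given. The age of the mice, the dose of rosiglitazone and the deleted Pparg exons were not given in the labels. The labels call the arrays of a group biological replicates without saying which animal gave which array, so p-values measure only the spread between these samples.

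PPARs are nuclear receptors that bind fatty acids and their derivatives and regulate lipid uptake, storage and oxidation. Each PPAR binds DNA as a dimer with an RXR, a receptor that also partners the LXR, retinoic acid, vitamin D and thyroid hormone receptors. Coactivators such as PGC-1β, the product of Ppargc1b, join the ligand-bound dimer, and corepressors such as NCoR1 hold target genes off in the absence of ligand. In MFs PPARγ is known for lipid handling and for the alternative and repair programmes.

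RefSeq promoter windows, 250 bases before to 50 after a transcript start on GRCm38.p6, were found for 6 of the 7 genes, 11 windows in all, and Ppargc1b had none. The most upstream window is shown for the 4 receptor genes whose values changed with day or subset, because they can be read against the groups that rose or fell together. Capitals mark the nuclear receptor element AGGTCA and the GC box GGGCGG, matched on either strand, and all 4 windows lie on the plus strand. Pparg lies at chr6:115360894-115361193, Ppard at chr17:28232504-28232803, Rxra at chr2:27676951-27677250 and Rxrb at chr17:34031562-34031861.
Pparg: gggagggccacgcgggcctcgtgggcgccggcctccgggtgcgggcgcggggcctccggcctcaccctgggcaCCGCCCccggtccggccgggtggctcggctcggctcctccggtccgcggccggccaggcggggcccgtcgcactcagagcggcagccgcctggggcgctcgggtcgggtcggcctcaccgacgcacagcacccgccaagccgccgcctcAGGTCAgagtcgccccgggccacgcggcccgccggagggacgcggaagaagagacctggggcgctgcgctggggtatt
Ppard: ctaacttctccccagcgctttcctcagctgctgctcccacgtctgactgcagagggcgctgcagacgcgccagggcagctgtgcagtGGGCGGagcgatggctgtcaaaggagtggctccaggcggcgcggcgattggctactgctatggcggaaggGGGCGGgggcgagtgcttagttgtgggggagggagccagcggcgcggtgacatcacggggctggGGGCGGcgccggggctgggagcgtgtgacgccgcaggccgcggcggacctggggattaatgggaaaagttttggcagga
Rxra: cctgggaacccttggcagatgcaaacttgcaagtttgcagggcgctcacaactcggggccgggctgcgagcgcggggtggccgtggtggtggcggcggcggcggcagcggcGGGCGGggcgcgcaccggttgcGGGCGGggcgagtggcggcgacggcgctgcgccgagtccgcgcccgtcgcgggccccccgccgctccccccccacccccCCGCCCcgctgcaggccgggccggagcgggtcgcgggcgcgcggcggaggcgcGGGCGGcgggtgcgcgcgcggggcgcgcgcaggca
Rxrb: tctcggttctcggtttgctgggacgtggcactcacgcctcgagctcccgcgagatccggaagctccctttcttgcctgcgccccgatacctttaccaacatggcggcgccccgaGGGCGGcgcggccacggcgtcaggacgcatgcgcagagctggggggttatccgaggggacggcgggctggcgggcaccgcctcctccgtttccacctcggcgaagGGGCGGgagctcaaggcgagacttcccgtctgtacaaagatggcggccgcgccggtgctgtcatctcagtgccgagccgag
The Pparg window held 1 such element and 1 GC box, the Ppard window 3 GC boxes, the Rxra window 4 and the Rxrb window 2. Of 32851 RefSeq windows, 16.3% held AGGTCA and 35.7% the GC box. The DR1 element, a pair of AGGTCA elements with 1 base between them that PPAR and RXR dimers bind, was in no window of the 6 genes and in 0.0396% of all windows. G and C made up 80.3% of the Pparg window, 68.3% of the Ppard, 83.0% of the Rxra and 68.7% of the Rxrb window. The median over all windows was 52.7%. These are letter matches in short windows, the arrays read no promoter, and the single probe set of each gene does not tell its transcript starts apart.

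Values below are the deposited log2 values of 1 probe set per gene, written as mean ± SD over arrays. A difference is in log2 units, its standard error (SE) and adjusted p come from a limma fit over all 44 arrays, and a gene passed when the Benjamini-Hochberg adjusted p over all 19938 genes was under 0.05. Levels were compared between groups for 1 gene, not between genes. In sorted bulk samples a lower value can mean fewer cells that express the gene or less RNA in each, and these cannot be told apart.

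A pair of features of the libraries bears on the results. The untreated WT day 2 arrays with replicate numbers 1 to 3 had Lyz2, which encodes lysozyme and is interrupted in LysM Cre mice, at 8.87 ± 0.17 in Ly6C+ MFs and 9.18 ± 0.10 in Ly6C- MFs, against 12.81 ± 0.19 and 12.86 ± 0.09 for numbers 4 to 6 (n = 3 each). KO arrays had group means of 9.49 to 9.72 and the other WT groups 12.95 to 13.01. Numbers 1 to 3 thus went against their WT label in this gene. For the 6 measured genes, results that use these arrays are given with each set of numbers where that changes the call. Genes of the other lists and the markers were not recomputed by set, so their calls were not checked in this respect. The day 4 arrays are labelled Ly6C+ F4/80low, but Vcan, a gene of inflammatory monocytes, was 6.56 on average in WT and in KO, below both the 7.97 of WT day 2 Ly6C- MFs and the 12.15 of WT day 2 Ly6C+ MFs. Plac8, another such gene, was 9.20 in WT and 8.74 in KO, between the 6.88 and the 11.31 of those WT groups. Adgre1, which encodes F4/80, was 12.27 at day 4 in WT, against 12.08 and 11.53 in those 2 groups. Day 4 was therefore compared with both day 2 subsets, the second comparison being added after the data were seen. Of 9 MF markers 8 were measured, and Cd68, a lysosomal protein of MFs, had group means between 12.58 and 12.91. Others of the list varied between groups, Mertk from 9.16 to 11.30 and Cd14 from 10.31 to 12.57. Of the 8, 3 were higher and 1 lower in WT day 2 Ly6C- than in Ly6C+ MFs, against 45.2% of all genes. At day 4, 6 were higher and 2 lower than in WT day 2 Ly6C+ MFs, against 49.8% of all genes. The largest of these differences was that of Lyz2, the gene that differed between the WT replicate numbers, so this count rests partly on it. In KO 4 of the 8 were higher and 2 lower in the same comparison, against 44.8% of all genes.

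Pparg, the receptor deleted in the KO, was lowest at day 1 in both genotypes. Its values in WT Ly6C+ MFs were 9.30, 9.16, 9.18 and 9.20 at day 1. At day 2 they ran from 9.95 through a median of 10.18 to 11.004 (n = 6), and at day 4 they were 9.95, 9.93, 9.86 and 10.03. All 6 day 2 arrays lay above all 4 day 1 arrays, and 2 of the 4 day 4 arrays lay below every day 2 array. In KO MFs Pparg was 9.08, 9.16, 9.52 and 9.49 at day 1, 10.49, 10.54, 10.25, 10.40 and 10.26 at day 2, and 10.15, 10.43, 10.15 and 10.002 at day 4. KO and WT arrays overlapped at every day. At day 2 the order of the KO and WT means depended on which WT replicate numbers were used, as given with the genotype comparison. Whether the probes lie in the deleted exons was not given in the sources used here, so the probe set does not check the deletion.

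Ppard, a widely expressed PPAR with a part in fatty acid oxidation, went the other way and was highest at day 1. WT day 1 Ly6C+ values were 10.06, 10.07, 10.10 and 10.25, and KO values 9.98, 10.17, 10.27 and 10.22. Means at day 2 were 9.81 ± 0.14 in WT Ly6C+ MFs (n = 6) and 9.41 ± 0.05 in WT Ly6C- MFs (n = 6), and at day 4 9.49 ± 0.07 (n = 4). All 6 Ly6C- arrays lay below all 6 Ly6C+ arrays. Ppara, the PPAR best known from liver, had group means of 5.66 to 5.88 and ranged from 5.48 to 6.19 over the 44 arrays, and it passed in none of the 19 comparisons. All its values lay below the lowest array median of 6.64, and whether this probe set detects the gene in MFs was not tested.

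Rxra, the main RXR of MFs and the usual partner of PPARγ, fell into 2 separate ranges. It was 8.72, 8.54, 8.63 and 8.43 in WT day 1 Ly6C+ MFs and ran from 8.22 through 8.65 to 8.85 at day 2 (n = 6). In WT day 2 Ly6C- MFs it ran from 9.36 through 9.44 to 9.69 (n = 6), and at day 4 it was 9.64, 9.78, 9.66 and 9.77. KO values were 8.51, 8.83, 8.60 and 8.32 at day 1, 8.90, 8.84, 8.82, 8.68 and 8.51 in day 2 Ly6C+ MFs, 9.59, 9.44, 9.45, 9.37 and 9.25 in day 2 Ly6C- MFs, and 9.75, 9.75, 9.83 and 9.79 at day 4. No Ly6C+ array of days 1 and 2 reached the lowest Ly6C- or day 4 array in either genotype.

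Rxrb, the other RXR measured among the 7, stood apart mainly at day 4. Its WT values were 8.53, 8.40, 8.48 and 8.46 at day 1 and 8.92, 8.90, 9.09 and 9.07 at day 4. At day 2 they ran from 8.12 through 8.32 to 8.39 in Ly6C+ MFs and from 7.91 through 8.14 to 8.20 in Ly6C- MFs (n = 6 each). The day 2 subsets overlapped, while all 4 day 4 arrays lay above every day 1 and day 2 array of that genotype, and the KO showed the same layout with 9.06, 8.93, 9.06 and 8.98 at day 4. Ppargc1b, whose product PGC-1β coactivates nuclear receptors and drives mitochondrial genes, was 6.79 ± 0.24 at WT day 1 (n = 4), 6.85 ± 0.15 in day 2 Ly6C+ MFs and 7.32 ± 0.25 in day 2 Ly6C- MFs (n = 6 each), and 7.20 ± 0.12 at day 4 (n = 4). Its 5 KO day 2 Ly6C- values, 7.27, 7.32, 7.53, 7.47 and 7.20, all lay above the 5 Ly6C+ values, which ended at 7.03.

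**Figure D1:**
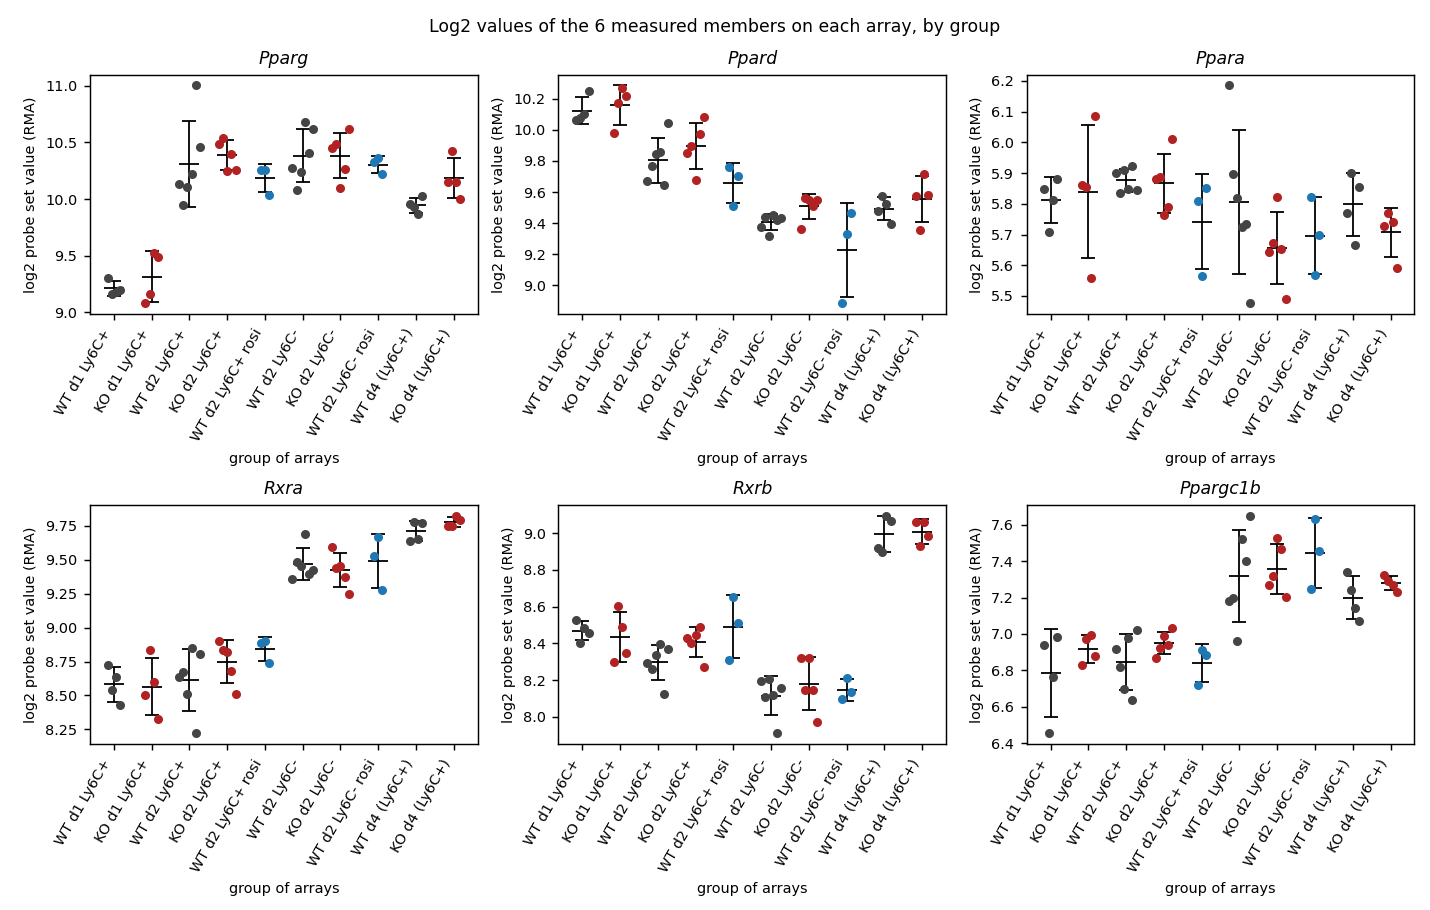
Log2 probe set values (y axis) of Pparg, Ppard, Ppara, Rxra, Rxrb and Ppargc1b on every array, by group (x axis, d is day, rosi is rosiglitazone, brackets mark the day 4 label). Grey points are untreated WT, red KO and blue rosiglitazone arrays, and the black bars give mean and SD. Pparg is lowest at day 1, Rxra lies higher in Ly6C- and day 4 arrays, and Rxrb is highest at day 4, with means of 8.996 in WT and 9.01 in KO.

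Putting the 10 groups in order of their means, 9 steps for each gene and 54 in all, left 3 steps that passed between neighbours (limma, all 45 pairs of groups fitted). For Pparg the step was 0.63 between KO day 1 and WT day 4 (adjusted p = 0.000305), with every day 2 group above. For Rxra it was 0.58 between rosiglitazone Ly6C+ and KO Ly6C- MFs at day 2 (adjusted p = 5.26e-05). For Rxrb it was 0.50 between rosiglitazone Ly6C+ MFs and WT day 4 MFs (adjusted p = 8.79e-06). Ppard, Ppara and Ppargc1b varied in smaller steps, none of which passed, the nearest being 0.25 for Ppargc1b between KO day 2 Ly6C+ and WT day 4 MFs (adjusted p = 0.0589).

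The first comparison asked how the repair subset differed from the inflammatory subset at day 2. In WT MFs, 2 of the 6 genes were higher in Ly6C- MFs and 2 were lower, where 45.2% of all genes passed in either direction. Rxra was higher by 0.85 (SE 0.0872, adjusted p = 1.24e-10), a 1.81-fold difference, and Ppargc1b by 0.47 (SE 0.0905, adjusted p = 4.27e-05). All 6 Ly6C- arrays were above all Ly6C+ arrays for Rxra, and 5 of 6 for Ppargc1b. Ppard differed by -0.40 (SE 0.0778, adjusted p = 5.68e-05). Rxrb differed by -0.18 (SE 0.0658, adjusted p = 0.0233), with 3 of 6 arrays below all Ly6C+ arrays. Pparg differed by 0.07 with a 95% interval of -0.17 to 0.31, and Ppara by -0.07 with an interval of -0.23 to 0.09.

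KO MFs gave the same 4 genes in the same directions, 2 higher and 2 lower, where 38.4% of all genes passed. Rxra was higher by 0.67 (SE 0.0955, adjusted p = 3.3e-07) and Ppargc1b by 0.41 (SE 0.0991, adjusted p = 0.00122), with 5 of 5 arrays above for both. Ppard differed by -0.39 (SE 0.0853, adjusted p = 0.000361) and Rxrb by -0.23 (SE 0.072, adjusted p = 0.0121). Under rosiglitazone the same 4 genes passed again, against 23.2% of all genes, with Rxra at 0.65 (SE 0.123), Ppargc1b at 0.60 (SE 0.128), Ppard at -0.43 (SE 0.11) and Rxrb at -0.34 (SE 0.093). All 3 Ly6C- arrays lay outside the range of the 3 Ly6C+ arrays for each of these 4 genes. The WT subsets were sorted from untreated mice and the rosiglitazone subsets from other mice, so these comparisons share no array.

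Rxra, Ppargc1b and Ppard kept their calls in WT and KO under every alternative run, whereas Rxrb was the least firm. In WT the Rxrb call was lost with arrays centred on their median (-0.16, adjusted p = 0.0524), with replicate numbers 1 to 3 (-0.13) or 4 to 6 (-0.23) alone, in a fit of the compared groups, and without Ly6C+ replicate 6 or Ly6C- replicate 5 (-0.14), and its adjusted p ranged from 5.82e-07 to 0.26 over 22 alternatives. Quantile normalization moved Rxrb to -0.36 in WT and to -0.38 in KO, and without KO Ly6C- replicate 5 the KO value was -0.18 (adjusted p = 0.0624). Ppard under rosiglitazone rested on Ly6C- replicate 1, which was 8.89 against 9.33 and 9.46, and without it the difference was -0.26 (adjusted p = 0.0818). With the replicate number as a block, Ppard was -0.43 with an adjusted p of 0.064, and over 13 alternatives its adjusted p ran from 0.000332 to 0.0818. The 3 same-numbered pairs were positively correlated, which does not establish that they were paired. Rxrb under rosiglitazone was -0.26 (adjusted p = 0.0534) without Ly6C+ replicate 2, within a range of 6.77e-06 to 0.0645. Ppara in KO subsets, at -0.21 (adjusted p = 0.0558), passed without Ly6C+ replicate 3 (-0.24) or Ly6C- replicate 3 (-0.25), its adjusted p ranging from 0.0232 to 0.345 over 16 alternatives. For Ppargc1b in WT the size differed by set, 0.30 with numbers 1 to 3 and 0.65 with numbers 4 to 6.

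**Figure D2:**
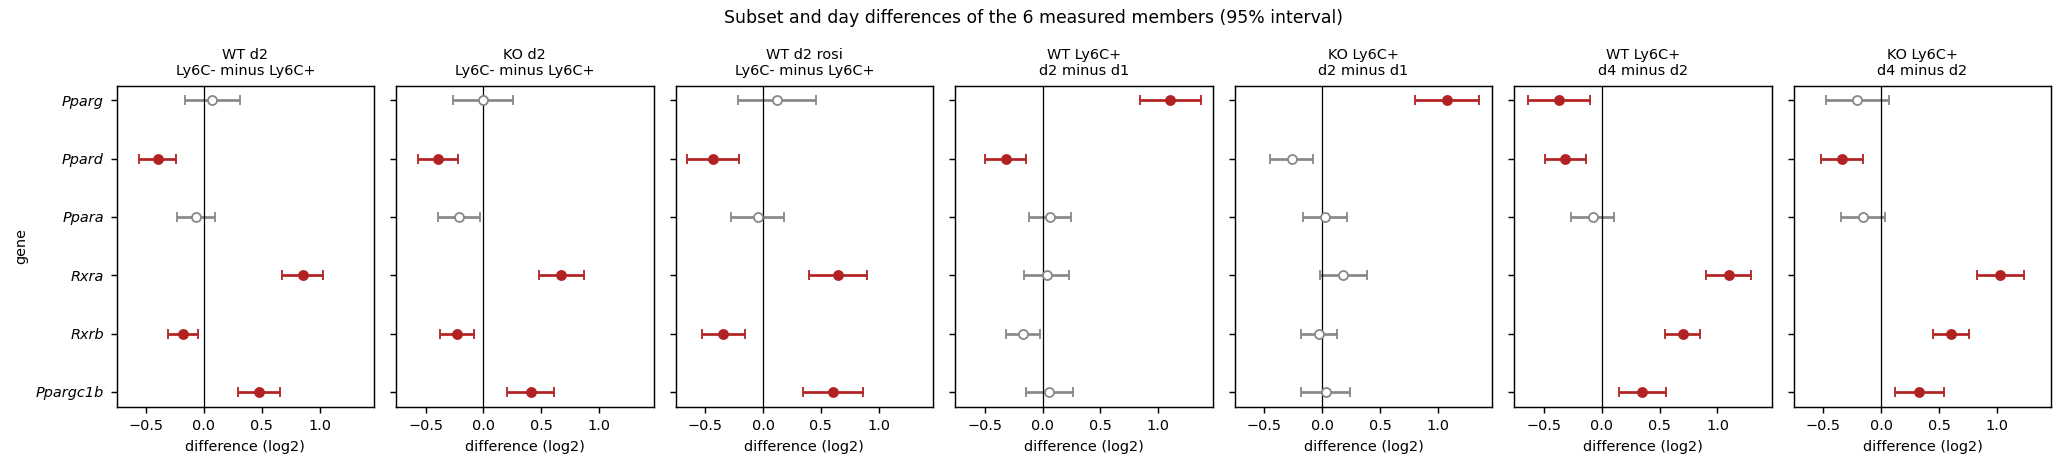
Differences in log2 units (x axis) of the 6 measured genes (y axis), with 95% intervals, for the Ly6C- minus Ly6C+ comparison at day 2 in WT, KO and rosiglitazone-treated WT MFs and for days 2 minus 1 and 4 minus 2 in MFs labelled Ly6C+. Filled red points passed and open grey points did not. Rxra and Ppargc1b are right of 0 and Ppard and Rxrb left of 0 in the 3 subset panels, while at day 4 Rxrb joins Rxra on the right.

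The subset differences were compared directly between genotypes and between treated and untreated mice. No gene of the 6 passed for genotype by subset, where 0.01% of all genes did, or for rosiglitazone by subset, where 0.015% did (limma), and none had an unadjusted p under 0.05 in either. The largest such value was for Rxra, at -0.18 for genotype with a 95% interval of -0.44 to 0.08, and at -0.21 for rosiglitazone with an interval of -0.51 to 0.10. Differences inside these intervals were not resolved by this number of arrays.

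Between days 1 and 2 the Ly6C+ MFs differed mainly in Pparg. It rose by 1.10 in WT (SE 0.131, adjusted p = 1.13e-07), 2.15-fold, and by 1.08 in KO (SE 0.136, adjusted p = 1.04e-06), 2.11-fold, with every day 2 array above every day 1 array in both. In WT 1 of the 6 genes was higher and 1 lower, against 9.69% of all genes that passed, and in KO 1 was higher, against 8.64%. The gene that fell in WT was Ppard, by 0.32 (SE 0.087, adjusted p = 0.0137). In KO the Ppard difference was -0.26 (SE 0.0904, adjusted p = 0.0596), with 4 of 5 day 2 arrays below the day 1 arrays. Rxra differed by 0.03 in WT and 0.18 in KO, and Ppargc1b by 0.06 and 0.03, and neither passed. Rxrb differed by -0.17 in WT, with all 6 day 2 arrays below the day 1 arrays (adjusted p = 0.145), and by -0.03 in KO.

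The rise of Pparg passed under every alternative in both genotypes, and the genotype by day test gave -0.03 with a 95% interval of -0.41 to 0.35, where 0.01% of all genes and none of the 6 passed (none had an unadjusted p under 0.05). The Ppard call in WT was lost with replicate numbers 4 to 6 (-0.27, adjusted p = 0.104) and without day 1 replicate 4 (-0.27, adjusted p = 0.0782), in a range of 0.00362 to 0.104, and in KO it passed without day 1 replicate 1 (-0.32) or day 2 replicate 5 (-0.31), in a range of 0.0258 to 0.177.

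Pparg did not separate the 2 day 2 subsets, but it separated the sets of WT replicate numbers. In Ly6C+ MFs it was 10.13, 9.95 and 10.10 for numbers 1 to 3 and 10.22, 11.004 and 10.46 for numbers 4 to 6. In Ly6C- MFs it was 10.28, 10.08 and 10.24 against 10.68, 10.41 and 10.62. The sets did not overlap in either subset, with means 0.50 and 0.37 apart. Ppargc1b in Ly6C- MFs was also lower in numbers 1 to 3 without overlap (7.11 ± 0.13 against 7.52 ± 0.12), and Ppara was higher (5.97 ± 0.19 against 5.65 ± 0.15, n = 3 each). Ppard, Rxra and Rxrb overlapped between the sets in both subsets. Replicate 5 of the WT day 2 Ly6C+ arrays held the highest Pparg value and the lowest Rxra, Rxrb and Ppargc1b values of its group, 8.22, 8.12 and 6.64.

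**Figure D3:**
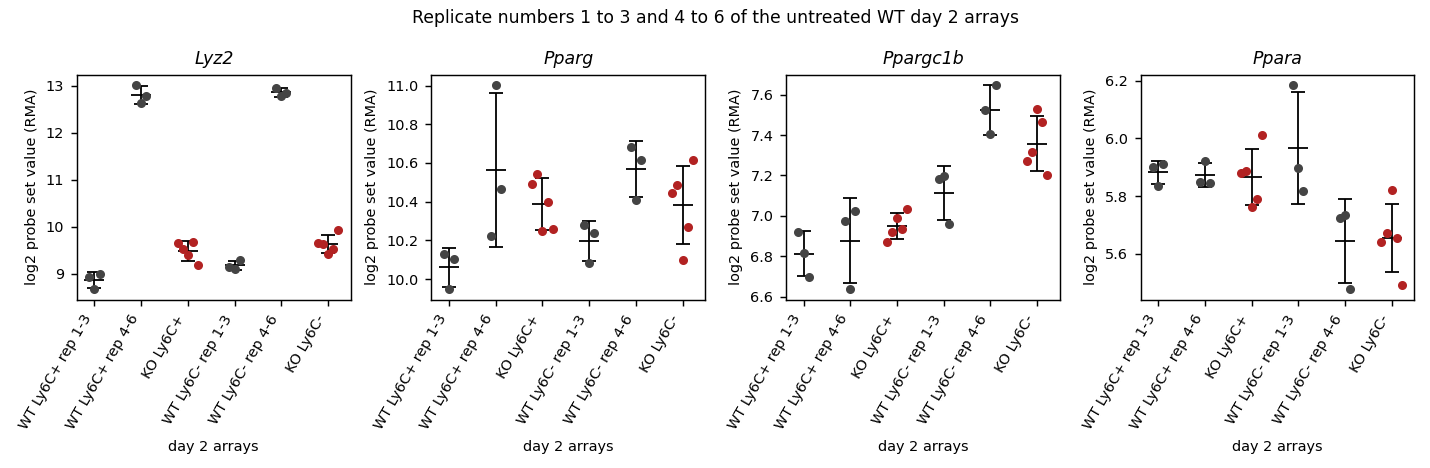
Log2 probe set values (y axis) of Lyz2, Pparg, Ppargc1b and Ppara on the day 2 arrays (x axis), with the untreated WT arrays (grey) split by replicate numbers 1 to 3 and 4 to 6 and the KO arrays in red. Black bars give mean and SD. Lyz2 is near the KO level in numbers 1 to 3, and Pparg is lower in numbers 1 to 3 than in 4 to 6 in both subsets.

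At day 4 the RXR genes were both higher than in day 2 Ly6C+ MFs. In WT 3 of the 6 genes were higher and 2 lower, where 49.8% of all genes passed. Rxra rose by 1.10 (SE 0.0975, adjusted p = 1.74e-12), 2.14-fold, and Rxrb by 0.70 (SE 0.0735, adjusted p = 1.43e-10), 1.62-fold. Ppargc1b rose by 0.35 (SE 0.101, adjusted p = 0.00384), and all 4 day 4 arrays were above all 6 day 2 arrays for these 3 genes. Ppard fell by 0.31 (SE 0.087, adjusted p = 0.00296), with 4 of 4 arrays below. Pparg fell by 0.37 (SE 0.131, adjusted p = 0.0186), but only 2 of 4 arrays lay below the day 2 range.

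KO MFs gave 3 higher genes and 1 lower, against 44.8% of all genes, namely Rxra at 1.03 (SE 0.101, adjusted p = 3.15e-11), Rxrb at 0.60 (SE 0.0764, adjusted p = 1.55e-08), Ppargc1b at 0.33 (SE 0.105, adjusted p = 0.0102) and Ppard at -0.34 (SE 0.0904, adjusted p = 0.00207). Pparg was -0.20 there and did not pass (adjusted p = 0.218). The genotype by day test gave 0.16 for Pparg, with a 95% interval of -0.22 to 0.55, and none of the 6 genes passed it or had an unadjusted p under 0.05, where 0.0301% of all genes passed (limma). The WT Pparg call was -0.12 with replicate numbers 1 to 3 of day 2 (adjusted p = 0.363) and -0.62 with numbers 4 to 6. Without day 2 replicate 5 it was -0.23 (adjusted p = 0.0807) and without day 4 replicate 3 -0.34 (adjusted p = 0.055), over a range of 0.000239 to 0.363. The 4 other WT calls held under every alternative run.

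Compared with day 2 Ly6C- MFs, day 4 MFs were set apart mainly by Rxrb. It was higher by 0.88 in WT (SE 0.0735, adjusted p = 8.01e-13), 1.84-fold, and by 0.83 in KO (SE 0.0764, adjusted p = 1.92e-11), 1.78-fold, with 4 of 4 arrays above in each. Rxra was higher by 0.36 in KO (SE 0.101, adjusted p = 0.00644), with 4 of 4 arrays above. In WT its difference was 0.24 (adjusted p = 0.0569), which passed in 5 of 20 alternatives and ranged from 0.0122 to 0.255 in adjusted p. It was 0.28 with replicate numbers 1 to 3 of WT day 2 (adjusted p = 0.0273), 0.21 with numbers 4 to 6 (adjusted p = 0.255) and 0.29 without day 2 Ly6C- replicate 4 (adjusted p = 0.0237). Pparg was lower by 0.44 in WT, at -0.44 (SE 0.131, adjusted p = 0.00836), with 4 of 4 arrays below, and at -0.20 in KO (adjusted p = 0.355). With replicate numbers 1 to 3 of WT day 2 the Pparg difference was -0.26 (adjusted p = 0.0665, the highest of 20 alternatives, the lowest being 0.000382). Ppard differed by 0.09 in WT and 0.05 in KO, and Ppargc1b by -0.12 and -0.08, and neither passed. With WT replicate numbers 4 to 6 the Ppargc1b difference was -0.33 (adjusted p = 0.0204, range 0.0204 to 0.94) and with numbers 1 to 3 it was 0.08. In all, 1 gene was higher and 1 lower in WT, against 29.3% of all genes, and 2 were higher in KO, against 24.8%. The day 4 comparisons in each genotype share the day 4 arrays.

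Neither the genotype nor the drug moved any of the 6 genes past the threshold. For KO against WT, 0 of 6 passed at day 1, where 0.0351% of all genes did, in day 2 Ly6C+ MFs, where 1.88% did, in day 2 Ly6C- MFs, where 0.201% did, and at day 4, where 0.0652% did (limma). None of the 6 had an unadjusted p under 0.05 in any of these 4 comparisons. Pparg differed by 0.10 at day 1, with a 95% interval of -0.19 to 0.39. In day 2 Ly6C+ MFs it differed by 0.08 (-0.17 to 0.32), in day 2 Ly6C- MFs by 0.00 (-0.25 to 0.25), and at day 4 by 0.24 (-0.05 to 0.53), with 3 of 4 KO arrays above the WT arrays. Intervals of Rxra ran from -0.23 to 0.32 over the 4 comparisons, and those of Rxrb from -0.19 to 0.25. Against WT replicate numbers 1 to 3 alone, Pparg was higher in KO day 2 Ly6C+ MFs by 0.33 (adjusted p = 0.0286, range 0.0286 to 0.997 over 21 alternatives), while against numbers 4 to 6, the arrays with high Lyz2, its difference was -0.18 (adjusted p = 0.576). In Ly6C- MFs the KO difference of Pparg was 0.19 against numbers 1 to 3 and -0.18 against numbers 4 to 6, and neither passed. The sign of the day 2 Pparg difference thus turned with the set of WT arrays in both subsets. Ppara differed by -0.31 in KO Ly6C- MFs against numbers 1 to 3 (adjusted p = 0.0218, range 0.0218 to 1) and by 0.01 against numbers 4 to 6.

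For rosiglitazone against no treatment, 0 of 6 genes passed in Ly6C+ MFs, where 11.1% of all genes did, and 0 of 6 in Ly6C- MFs, where 0.0351% did (limma). In Ly6C+ MFs 2 genes had an unadjusted p under 0.05, the RXR genes. Rxra values were 8.89, 8.90 and 8.74 with the drug, a difference of 0.23 (SE 0.107, adjusted p = 0.169), and Rxrb values 8.31, 8.66 and 8.51, a difference of 0.19 (SE 0.0805, adjusted p = 0.113), with 2 of 3 arrays above the untreated range for each. In Ly6C- MFs no gene of the 6 had an unadjusted p under 0.05. Pparg, whose product the drug binds, was 10.25, 10.26 and 10.04 in treated Ly6C+ MFs and 10.33, 10.37 and 10.22 in treated Ly6C- MFs, differences of -0.13 (-0.42 to 0.16) and -0.08 (-0.37 to 0.21). Against WT replicate numbers 4 to 6, which share the high Lyz2 values of the treated arrays, the Pparg differences were -0.38 and -0.26, and against numbers 1 to 3 they were 0.12 and 0.11, none of which passed. Ppargc1b in treated Ly6C- MFs differed by 0.13, and by 0.33 against WT replicate numbers 1 to 3 (adjusted p = 0.0344, range 0.0344 to 0.999 over 19 alternatives) but -0.08 against numbers 4 to 6.

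**Figure D4:**
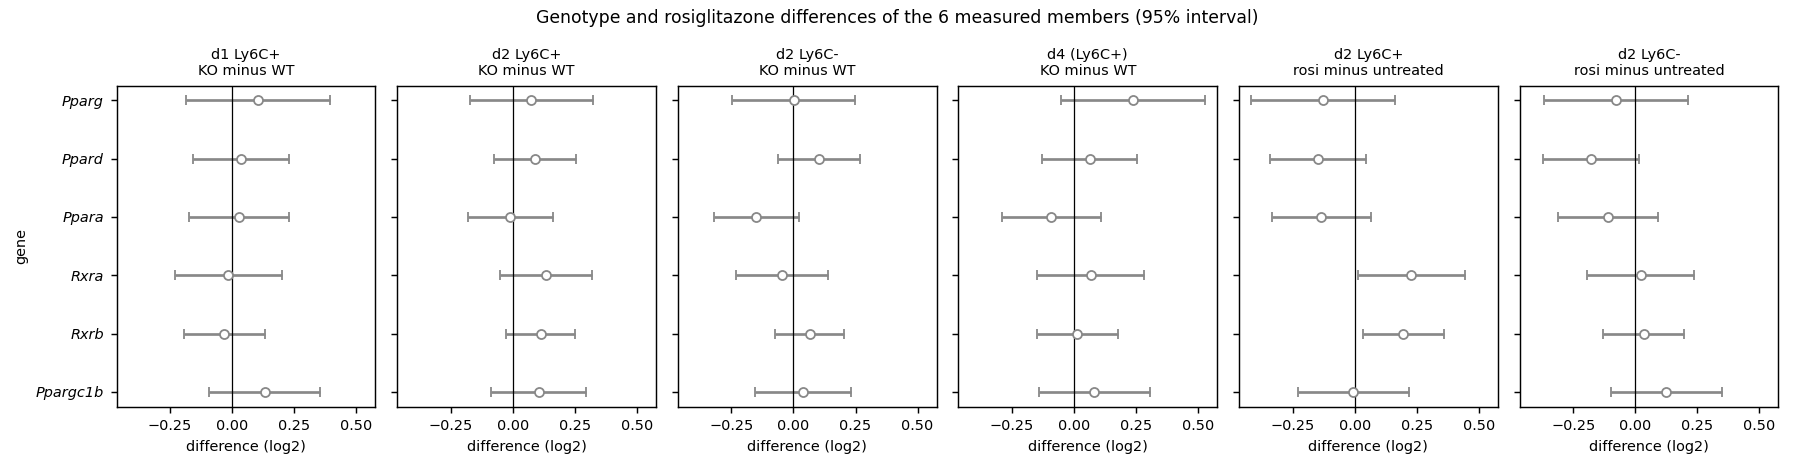
Differences in log2 units (x axis) of the 6 measured genes (y axis), with 95% intervals, for KO minus WT at day 1, in both day 2 subsets and at day 4, and for rosiglitazone minus no treatment in both day 2 subsets. All points are open grey, since none passed, and the interval that reaches furthest above 0, -0.05 to 0.53, is that of Pparg at day 4.

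Other genes of the pathway, from lists written for this set, were counted in the same fits. The PPAR targets are genes of lipid uptake, storage and oxidation, of which 12 of 15 were measured. In WT Ly6C- MFs 9 of 12 were higher and none lower, against 45.2% of all genes, with a median difference of 0.56 against -0.07 over all genes. The largest were Cd36, a fatty acid scavenger receptor, at 1.56 (adjusted p = 2.4e-13), Fabp4, a fatty acid carrier, at 1.53 (adjusted p = 5.5e-11), and Acaa2, a mitochondrial thiolase, at 0.92 (adjusted p = 6e-09). KO MFs gave 9 higher and 1 lower, against 38.4% of all genes, with a median of 0.59, Fabp4 at 1.25 and Cd36 at 1.43. Rosiglitazone-treated MFs gave 8 higher, against 23.2% of all genes, with a median of 0.69, led by Fabp4 at 2.32.

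Over days the same targets were counted from day 1 to day 4. Between days 1 and 2 in WT, Fabp4 rose by 1.04 (adjusted p = 4.1e-05), Cd36 fell by 0.46 (adjusted p = 0.028) and the other 10 did not pass, with a median of 0.03, where 9.69% of all genes passed. From day 2 Ly6C+ to day 4 MFs 7 of 12 were higher and 1 lower, against 49.8% of all genes, led by Angptl4, a secreted lipase inhibitor, at 1.23 (adjusted p = 2.9e-07), Acadm, a fatty acid dehydrogenase, at 1.10 (adjusted p = 9.7e-10), and Acaa2 at 0.94. Against day 2 Ly6C- MFs the day 4 arrays had none higher and 3 lower, against 29.3% of all genes, which were Fabp4 at -1.65, Cd36 at -0.74 and Plin2, a lipid droplet protein, at -0.48. With rosiglitazone 1 target passed in Ly6C- MFs, Angptl4 at 1.42 (adjusted p = 8.1e-05), where 0.0351% of all genes passed. In Ly6C+ MFs 2 targets were higher and 2 lower with the drug, where 11.1% of all genes passed. Among them were Fabp4 at -0.65, Acaa2 at 0.51 and Cpt1a, the gate of mitochondrial fatty acid import, at 0.46. In KO against WT, 1 target passed in the 4 comparisons, Acaa2 in day 2 Ly6C+ MFs at 0.43 (adjusted p = 0.042). In that comparison 1.88% of all genes passed.

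Of 12 other RXR and partner receptors 11 were measured. In WT Ly6C- MFs 6 were lower and 1 higher, against 45.2% of all genes, with a median of -0.24 against -0.07 over all genes. Those with the largest differences were Vdr, the vitamin D receptor, at -1.57 (adjusted p = 1e-13), and the orphan receptors Nr4a2 at -1.25 and Nr4a1 at -0.96. The higher one was Nr1h3, the LXRα gene, at 0.65 (adjusted p = 1.2e-06), chosen after its value was seen. KO MFs gave 6 lower and none higher, against 38.4% of all genes, and treated MFs 5 lower and 1 higher, against 23.2%. At day 4 against WT day 2 Ly6C+ MFs 6 were lower and 3 higher, against 49.8% of all genes, with Nr4a2 at -3.75, Nr4a1 at -2.19 and Vdr at -1.64. Rxrg, the third RXR gene, was also higher at day 4 by 0.40 (adjusted p = 0.00023), from a mean of 5.34 to 5.74. It is named here because it completes the family. Both means lay below the lowest array median of 6.64, and some muscle fibre markers were higher in the same comparison. Whether the MFs themselves express Rxrg was not tested. Against WT day 2 Ly6C- MFs 3 of the 11 receptors were higher and 3 lower, against 29.3% of all genes. Those with the largest differences were Nr4a2, Nr4a1 and Nr1h3.

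Coactivators and corepressors were counted in the same way. Of 10 coactivators none was higher in WT Ly6C- MFs and 2 were lower, against 45.2% of all genes. These were Ncoa6 at -0.21 and Ep300 at -0.19. At day 4 against WT day 2 Ly6C+ MFs none was higher and 4 were lower, where 49.8% of all genes passed. They were led by Pprc1, a relative of PGC-1, at -0.95, Crebbp at -0.44 and Ncoa6 at -0.33. In KO 2 coactivators were higher and 2 lower in that comparison, against 44.8% of all genes, with Pprc1 at -0.84 and Ep300 at 0.39. Of 9 corepressor genes 8 were measured. In Ly6C- MFs 2 of the 8 were higher in WT, 3 in KO and 1 under rosiglitazone, and none was lower. The shares of all genes that passed were 45.2%, 38.4% and 23.2%. Tbl1x, a subunit of the NCoR complex, was higher in Ly6C- MFs by 0.60 in WT, 0.67 in KO and 0.67 under rosiglitazone, and Sin3a by 0.22 in WT. At day 4 against WT day 2 Ly6C+ MFs 3 were higher and 2 lower, where 49.8% of all genes passed. Among them were Sirt1, a deacetylase, at -1.01, Tbl1x at 0.48 and Lcor at -0.36. Against WT day 2 Ly6C- MFs 1 corepressor was higher and 2 were lower, where 29.3% of all genes passed. These were Sirt1, Gps2 and Lcor, and Tbl1x did not pass there. Of the coactivators none was higher in that comparison and 4 were lower. Among 7 genes known to act upstream of Pparg, 1 was higher and 3 lower in WT Ly6C- MFs, against 45.2% of all genes. Among them were Cebpa at 0.93, Csf2rb, a GM-CSF receptor chain, at -0.61 and Csf2ra at -0.32. None of these 7 passed between days 1 and 2 in WT, when Pparg rose, where 9.69% of all genes passed. Their median difference was -0.26 against 0.02 over all genes. In KO, where Pparg rose too, Cebpa was higher by 0.72 (adjusted p = 0.0126) and Csf2rb was lower at -0.40 (adjusted p = 0.0461). There 8.64% of all genes passed, and the median was -0.02 against -0.02.

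**Figure D5:**
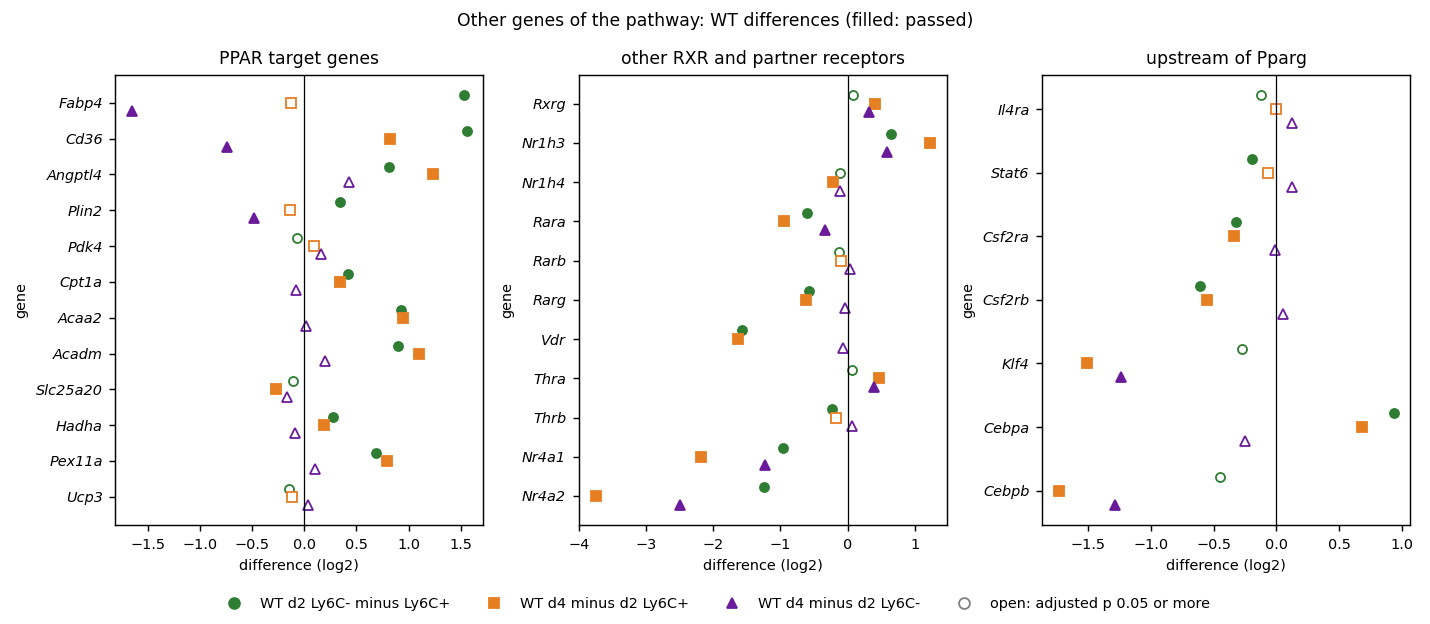
Differences in log2 units (x axis) of the measured PPAR target genes, other RXR and partner receptors, and genes upstream of Pparg (y axis) in WT MFs: Ly6C- minus Ly6C+ at day 2 (circles), day 4 minus day 2 Ly6C+ (squares) and day 4 minus day 2 Ly6C- (triangles). Filled symbols passed and open ones did not. Cd36 and Fabp4 are right of 0 between the subsets (1.56 and 1.53) and left of 0 from day 2 Ly6C- to day 4 (-0.74 and -1.65).

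Markers of other cells moved with some of these comparisons, and their part in the results was not tested. In WT Ly6C- MFs 5 of 10 neutrophil markers were lower and 1 higher, where 45.2% of all genes passed. The mean over the list ran from 5.67 to 5.93 on Ly6C- arrays and from 5.98 to 6.14 on Ly6C+ arrays. Lower too were 5 of 6 endothelial markers (6.30 to 6.53 against 6.43 to 7.20), 4 of 6 fibroblast markers (6.26 to 6.39 against 6.36 to 7.01) and 2 of 5 dendritic cell markers (6.06 to 6.23 against 6.63 to 6.80), and 3 of 5 T and NK cell markers (5.43 to 5.58 against 5.55 to 5.74). At day 4 in WT 5 of 9 muscle fibre markers were higher than in day 2 Ly6C+ MFs, where 49.8% of all genes passed. The list ran from 6.83 to 6.96 against 6.46 to 6.60, with Acta1 at 8.84 against 7.52. Of 6 fibroblast markers 1, Dcn, was higher there (7.18 against 6.49), and 9 of 10 neutrophil and 5 of 6 endothelial markers were lower, the latter with a median difference of -0.51. Against day 2 Ly6C- MFs, day 4 MFs had 5 of 9 muscle fibre and 4 of 6 fibroblast markers higher. In that comparison 29.3% of all genes passed, and the fibroblast list ran from 6.55 to 6.95 against 6.26 to 6.39. Of 5 dendritic cell markers 3 were higher there, with a median difference of 0.42. Adipocyte markers, whose cells express much Pparg, had 5 of 6 measured, and Adipoq was between 4.35 and 4.70 in every group mean. Between days 1 and 2 in WT, 2 of 10 neutrophil markers were lower, S100a8 (6.67 against 8.01) and S100a9 (6.55 against 7.27). In that comparison 9.69% of all genes passed. Cdh5, 1 of 6 endothelial markers, Dcn, 1 of 6 fibroblast markers, and Xcr1, 1 of 5 dendritic cell markers, were higher there, and of the 5 adipocyte markers none passed. In KO against WT day 2 Ly6C+ MFs 4 of 6 endothelial markers were lower and none higher, where 1.88% of all genes passed. Dcn and Xcr1 were lower there too. With rosiglitazone in Ly6C+ MFs 3 of 6 endothelial markers were lower and none higher, where 11.1% of all genes passed. The endothelial list ran from 6.49 to 6.66 on KO and 6.51 to 6.60 on treated Ly6C+ arrays, against 6.43 to 7.20 on untreated WT arrays.

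Over the 44 arrays each gene was set beside all others by Pearson's r of the log2 values, as a description of arrays that share groups. For Rxra the most alike were Man2b2, Abcc3 and Abhd4, with r of 0.981, 0.973 and 0.971, and for Rxrb Fbrsl1, F11r and Kif9, with 0.952, 0.933 and 0.929. Ppard was nearest to Pstpip2, Csf1 and Nod2 (0.934, 0.928 and 0.916) and Ppargc1b to Bin1, Nipsnap1 and Coq3 (0.898, 0.897 and 0.887). The patterns of Pparg and Ppara were shared less closely, with Ahsa1, Znhit6 and Calcrl at 0.856, 0.836 and 0.827 for Pparg, and Krtap5-4, Prr33 and Mir693 at 0.755, 0.718 and 0.703 for Ppara. Within the set, Rxra and Ppargc1b had an r of 0.778, Rxra and Ppard -0.76, Pparg and Ppard -0.594, Pparg and Rxra 0.345, and Rxra and Rxrb 0.318.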

How the data were processed

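RNA of sorted MFs was hybridised to Affymetrix expression arrays, 1 sample per array. The authors deposited log2 values per probe set, with RMA named in the submitters' processing notes, which corrects background, normalizes between arrays and summarises probes on the log2 scale, at a version of RMA that the labels leave out. The deposited table held 35556 probe sets and 44 arrays, with array medians between 6.64 and 6.77 log2 units, and the number of arrays limits the precision. Groups came from the array labels.

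From these log2 values the computation took probe sets with exactly 1 gene symbol (21789, against 1621 with several symbols and 12146 with none) and kept the set with the highest mean for each of 19938 genes. Differences between group means were tested with limma (version 3.58.1, lmFit and eBayes, two-sided, R 4.3.3) in 1 model of 10 groups without filter or block, with Benjamini-Hochberg adjustment over all genes in each comparison and a threshold of 0.05. There were 15 comparisons of 2 groups, 2 of them added after seeing the data, and 4 interactions. The fit was tested on simulated data. Intervals are 95% intervals of the fit. The 7 genes and the other gene lists were chosen with earlier results of these data known. Named are the 7 genes, up to 3 list genes with the largest difference that passed in a comparison, and the 3 genes most alike to each member, without predicted genes, with exceptions marked. Some other list genes are not reported here.

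Replicate numbers were checked by correlating the deviations from group means between same-numbered arrays. Only the rosiglitazone subsets met the rule of every correlation over 0.1 (3 pairs, 0.134 to 0.443), so their pairing comes from the data and not from a label. With so few pairs the rule does not establish a pairing there or its absence in the other comparisons.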

Additional observations from a re-analysis of the deposited data

Results flagged for a closer look

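In 2 of 48 groups of 4 to 6 arrays, over the 6 measured genes, 1 array lay far from the rest by Dixon's gap test, which chance gives in about 1 of 20 groups (2.4 of 48). Ppard in KO day 2 Ly6C- MFs was 9.36 on replicate 1 against 9.51 to 9.56 on the other 4 arrays. Rxrb in WT day 2 Ly6C- MFs was 7.91 on replicate 5 against 8.11 to 8.20 on the other 5, and without that array the Rxrb subset difference was -0.14 (adjusted p = 0.078, range 5.82e-07 to 0.26).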

How the results depend on the processing

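Each difference was recomputed with the mean of a gene's probe sets, a filter on low genes, centred or quantile-normalized arrays, trended and robust eBayes, only the compared groups, a replicate block, 1 set of WT day 2 replicate numbers, that set as a block (added after seeing the data), and without each array. Of 2309 recomputed differences of the 6 genes, 2266 kept their side of the threshold, 23 lost the call, 20 gained it and none that passed changed sign. Among the 2266, 140 that passed under neither setting changed sign and have no called direction. Of 392 recomputed counts, 379 stayed within 1.5 times the main count. The cause of the others was not tested. In the rosiglitazone subset comparison 2 genes passed with only the compared groups, against 4. Between days 1 and 2 in WT 1 gene passed with only the compared groups, with the replicate block and with replicate numbers 4 to 6, against 2, and 1 to 2 without 1 array. In KO 2 passed with the low-level filter, quantile normalization and the replicate block, against 1, and 1 to 2 without 1 array. With WT replicate numbers 1 to 3 alone, 1 gene passed for KO in day 2 Ly6C+ MFs, 1 for KO in day 2 Ly6C- MFs and 1 for rosiglitazone in Ly6C- MFs, against 0. Outside the rosiglitazone subsets no comparison had every correlation of same-numbered arrays over 0.1, and they ran from -0.369 to 0.6. In WT day 2 subsets 5 of 6 pairs were over 0.1, and 3 of 6 arrays correlated best with their own number. In KO day 2 subsets 4 of 5 pairs were over 0.1, and 4 of 5 arrays correlated best with their own number. Whether same-numbered subsets came from the same animals was not given. Outside the rosiglitazone subsets the replicate block gave Rxrb -0.18 in WT subsets (adjusted p = 0.063), Ppara -0.21 in KO subsets (0.0394), Ppard -0.34 in WT (0.08) and -0.31 in KO (0.041) from day 1 to 2, and Pparg -0.16 in WT (0.14) and -0.24 in KO (0.0363) from day 2 to 4, and it changed no other call of the 6 genes. Rxrb from day 1 to 2 in WT passed with quantile normalization only (-0.24, adjusted p = 0.00661, range 0.00661 to 0.509), and Ppargc1b from WT day 2 Ly6C- to day 4 with replicate numbers 4 to 6 only (-0.33, adjusted p = 0.0204, range 0.0204 to 0.94).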
